A study of Saccharomyces cerevisiae with 4 samples.

Results

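The genes described here form the Ehrlich pathway of budding yeast, Saccharomyces cerevisiae, by which amino acids become fusel alcohols and their acetate esters. They were chosen by name as 8 genes: the transaminase genes ARO8, ARO9 and BAT2, the decarboxylase gene ARO10, the reductase gene SFA1, the acetyltransferase genes ATF1 and ATF2, and the regulator gene ARO80. Each had 1 probe with a value on all 4 arrays, and together they were 8 of 4072 named genes measured. They were picked with the ratios of this same comparison known, among them the very low ratio of ARO10, so their values are given as a description. Limma's calls on these values are stated only as a record of the fit over all genes and are no evidence about the 8 genes.

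In the Ehrlich pathway a transaminase first takes the amino group from leucine, valine, isoleucine, methionine or an aromatic amino acid. A decarboxylase then turns the resulting keto acid into an aldehyde, which is reduced to a fusel alcohol or oxidised to a fusel acid. Fusel alcohols such as isoamyl alcohol and phenylethanol, and their acetate esters, are known as aroma compounds of fermented drinks. Aro80 is a transcription factor known to activate ARO9 and ARO10 when aromatic amino acids are supplied, and transcription of both is also known to respond to the quality of the nitrogen source.

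The study compared transgenic cells carrying the plasmid pAG305GPD-AAE13 with control cells carrying pAG305GPD-ccdB, with 4 biological replicate cultures of each. AAE13 is a plant enzyme that makes malonyl-CoA from malonate, and in such vectors it stands under the strong GPD promoter, while ccdB is the cassette of the empty vector. Both strains grew at 30 °C in SD drop-out medium, both were fed 0.2 mM malonate once the optical density was 0.1, and both were harvested in mid-log phase, so the control shares the vector backbone and the malonate. Each of the 4 arrays carried an AAE13 culture in Cy5 (arrays 1 and 3) or Cy3 (arrays 2 and 4) and a ccdB culture in the other dye.

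Values are ratios of AAE13 over ccdB on the log2 scale with the median of each array set to 0, and higher or lower means above or below that median. The deposited array medians ran from -0.17 to 1.41, and without centring the median of all named genes was 0.58. The base of the logarithm was inferred and the direction of the ratios is not given in the sources used here. Arrays of opposite dye orientation correlated with a mean r of 0.58 over all probes, so the ratios were read as sharing a direction. The sample titles name AAE13 first on arrays 1 and 3 and ccdB first on arrays 2 and 4. That order follows the dye orientation and does not give the shared direction. AAE13 over ccdB is only the likely direction, from the order in the series title and design text. If it is the other way round, every higher below becomes lower. No spot intensities were analysed here, so the signal behind each ratio is unknown, and the 4 arrays limit the precision.

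The decarboxylase gene ARO10 had by far the lowest ratio of the 8 genes, followed by the transaminase genes ARO9 and BAT2. The reductase gene, both acetyltransferase genes and the regulator gene lay near the array median, and the transaminase gene ARO8 lay above it. The low ratios lay at the opening steps of the pathway, transamination and decarboxylation, but ARO8, also a transaminase gene, did not share them. By limma over all named genes, 3 of the 8 were lower and 1 was higher at an adjusted p under 0.05, beside 11.8% lower and 13.0% higher (24.8% in all) among all 4072 genes. Without centring 1 of the 8 was higher and 2 were lower, beside 744 genes higher and 55 lower in all, so the balance of higher and lower calls rests on the centring. Nothing is read from that count, since the genes were chosen on this comparison. The sign was the same on every array for 5 of the 8, beside 46.4% of all named genes.

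**Figure D1:**
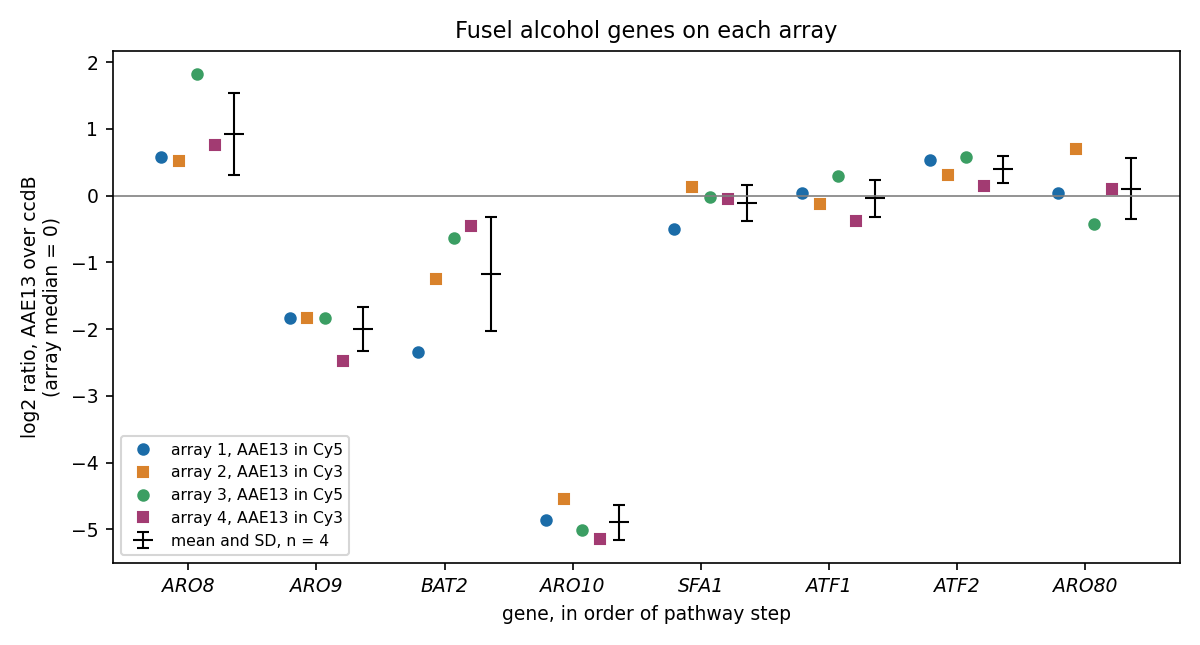
Log2 ratio of AAE13 over ccdB (vertical axis, array median at 0) for each of the 8 fusel alcohol genes (horizontal axis) on each of the 4 arrays, with circles for AAE13 in Cy5, squares for AAE13 in Cy3, and the mean with its SD in black. ARO10 lies between -5.15 and -4.54 on every array, ARO9 between -2.48 and -1.83, and SFA1, ATF1 and ARO80 lie on both sides of 0.

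Transamination came first. ARO9 encodes the inducible aromatic aminotransferase, and its log2 ratios on arrays 1 to 4 were -1.84, -1.84, -1.83 and -2.48. The values of arrays 1 to 3 nearly coincided and array 4 lay further down. The mean was -2.00 ± 0.32 (SD, n = 4), or 3.99-fold lower with AAE13, and 37 of the 4072 genes had a lower mean.

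ARO8 encodes the other broad aromatic aminotransferase, which also acts in the synthesis of phenylalanine and tyrosine. On arrays 1 to 4 it was at 0.58, 0.53, 1.82 and 0.76 on the log2 scale, all above the array median and with array 3 well above the rest. The mean was 0.92 ± 0.61 (SD, n = 4), or 1.89-fold higher. Without array 3 the mean was 0.62, without array 1 it was 1.03 and without array 4 it was 0.98, and in each of these 3 fits limma no longer called ARO8.

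The 2 aromatic aminotransferase genes therefore had ratios of opposite sign on each array. ARO9 minus ARO8 was -2.42, -2.36, -3.65 and -3.24 on the log2 scale on arrays 1 to 4, with a mean of -2.92 ± 0.63 (SD, n = 4).

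BAT2 encodes the cytosolic branched-chain aminotransferase, which starts the breakdown of leucine, valine and isoleucine. Its log2 ratios were -2.34, -1.26, -0.63 and -0.45 on arrays 1 to 4, below the array median throughout but spread widely, with array 1 lowest. The mean was -1.17 ± 0.85 (SD, n = 4), or 2.25-fold lower, and 94.2% of all named genes had a smaller SD. Limma did not call BAT2 without array 1 (mean -0.78), without array 4 (mean -1.41), with the arrays not centred (mean -0.56) or in a fit with a dye term.

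The mitochondrial branched-chain aminotransferase gene BAT1, which serves the synthesis of these amino acids and is not among the 8, moved the other way. BAT2 minus BAT1 was -4.78, -2.25, -6.34 and -4.88 on arrays 1 to 4, with a mean of -4.56 ± 1.70 (SD, n = 4). BAT1 alone averaged 3.39 ± 2.09 (SD, n = 4; limma adjusted p = 0.0117), and it was not called without array 4 (mean 3.04). Its mean was 2.62 without array 3 and 4.19 without array 2. The array with the least negative difference was array 2, on which BAT1 was lowest, at 0.99. In both pairs the isozyme known mainly for breakdown had the lower ratio and the one known also or mainly for synthesis the higher. These genes were chosen with results of these data known, so this is only a description.

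**Figure D2:**
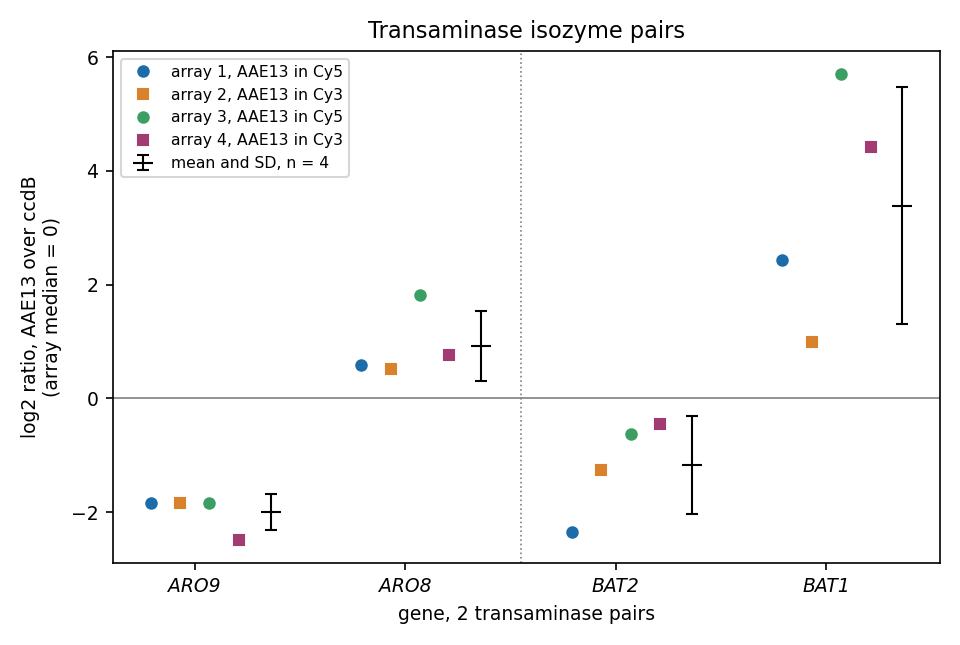
Log2 ratio of AAE13 over ccdB (vertical axis, array median at 0) for the aromatic aminotransferase genes ARO9 and ARO8 and the branched-chain aminotransferase genes BAT2 and BAT1 (horizontal axis) on the 4 arrays, with the mean and SD in black. ARO9 and BAT2 are below 0 and ARO8 and BAT1 above 0 on every array, and BAT1 runs from 0.99 to 5.71.

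The decarboxylation step held the largest difference. ARO10 encodes a keto acid decarboxylase that accepts the keto acids of phenylalanine, tryptophan, methionine and the branched-chain amino acids. Its log2 ratios were -4.86, -4.54, -5.01 and -5.15 on arrays 1 to 4. The mean was -4.89 ± 0.26 (SD, n = 4), or 29.7-fold lower with AAE13, and the 4 values spanned little beside that difference. Of all named genes, 1 had a lower mean, the phosphate transporter gene PHO89. The SD of ARO10 was unremarkable, with 25.9% of genes having a smaller value. The mean stayed between -5.01 and -4.80 when each array was left out, and was -4.28 with the arrays not centred.

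ARO10 and ARO9 are both known targets of Aro80, and ARO10 was the lower of both on every array. ARO10 minus ARO9 was -3.02, -2.70, -3.18 and -2.67 on arrays 1 to 4, a mean of -2.89 ± 0.25 (SD, n = 4). That SD is close to the 0.26 of ARO10 alone, so it does not show that the 2 genes moved together. The lowest array of both genes was array 4.

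**Figure D3:**
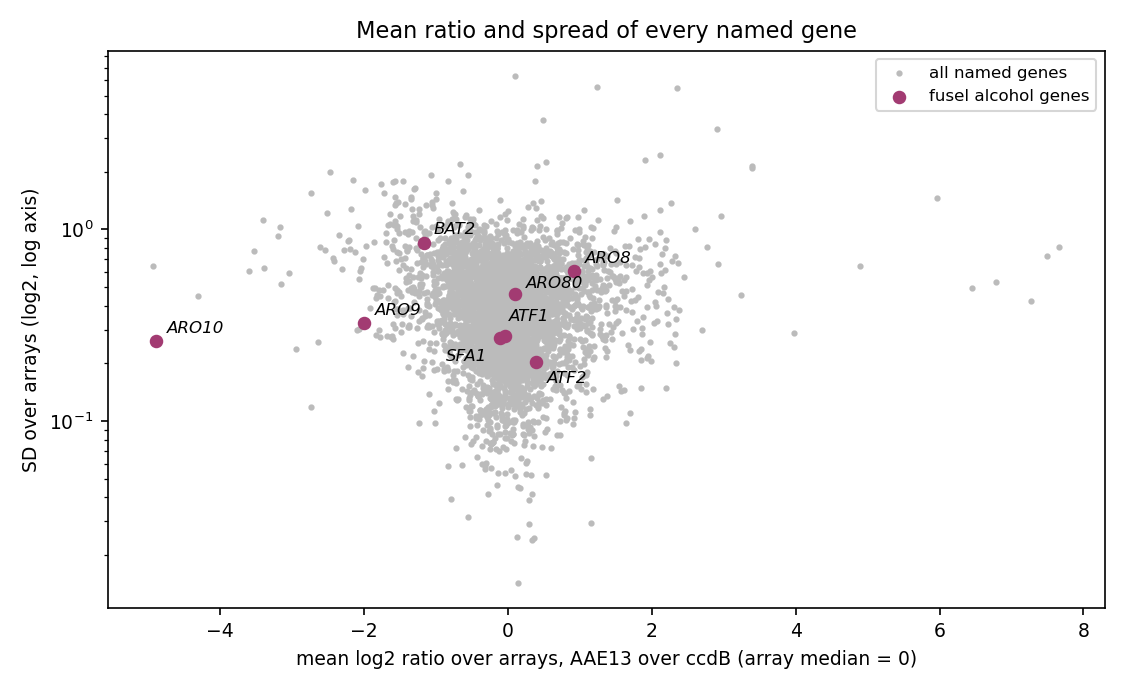
Mean log2 ratio of AAE13 over ccdB over 4 arrays (horizontal axis) against the SD over arrays on a log axis (vertical axis) for all named genes in grey and the 8 fusel alcohol genes in purple. ARO10 stands at the far left, at -4.89 with an SD of 0.26, whereas BAT2, at -1.17, has an SD of 0.85.

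The regulator gene itself was not low. The log2 ratios of ARO80 on arrays 1 to 4 were 0.04, 0.70, -0.42 and 0.10, on both sides of the array median. Its mean was 0.10 ± 0.46 (SD, n = 4). Array 2 was highest, as for ARO10, and array 3 lowest, whereas array 4 was lowest for ARO9 and ARO10. These are transcript ratios, and the activity of the Aro80 protein was not measured.

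SFA1 encodes a formaldehyde dehydrogenase that can also reduce long-chain and fusel aldehydes. Its log2 ratios were -0.50, 0.13, -0.03 and -0.05 on arrays 1 to 4, near the array median except on array 1. The mean was -0.11 ± 0.27 (SD, n = 4).

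ATF1 and ATF2 encode the alcohol acetyltransferases that make acetate esters from fusel alcohols and acetyl-CoA. The log2 ratios of ATF1 on arrays 1 to 4 were 0.04, -0.12, 0.29 and -0.38, with a mean of -0.04 ± 0.28 (SD, n = 4). ATF2 had 0.54, 0.30, 0.58 and 0.15, all above the array median, with a mean of 0.39 ± 0.20 (SD, n = 4), or 1.31-fold higher. Limma did not call either gene. ATF1 minus ATF2 was -0.50, -0.42, -0.30 and -0.53, a mean of -0.44 ± 0.10 (SD, n = 4), so their ratios moved almost in parallel from array to array.

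From lowest to highest mean ratio the order was ARO10, ARO9, BAT2, SFA1, ATF1, ARO80, ATF2 and ARO8. Among neighbours in that order, ARO10 lay below ARO9, BAT2 below SFA1, and ATF2 below ARO8 on every array. The mean difference was -1.06 ± 0.67 for BAT2 minus SFA1 and -0.53 ± 0.53 for ATF2 minus ARO8 (SD, n = 4). The other neighbours did not differ beyond their spread. ARO9 minus BAT2 was -0.83 ± 1.07, with BAT2 the lower of both on array 1. SFA1 minus ATF1 was -0.07 ± 0.43, ATF1 minus ARO80 was -0.15 ± 0.66, and ARO80 minus ATF2 was -0.29 ± 0.60 (SD, n = 4).

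The dye orientation is independent of the mean ratio on which the genes were chosen, and so could be tested. For ARO10 the mean log2 ratio was -4.94 with AAE13 in Cy5 and -4.85 with AAE13 in Cy3, a difference of -0.09 (limma adjusted p = 0.896). For ARO9 it was -1.83 with AAE13 in Cy5 and -2.16 with AAE13 in Cy3, a difference of 0.33 (limma adjusted p = 0.59). BAT2 differed by -0.63, with -1.49 in Cy5 and -0.86 in Cy3 (limma adjusted p = 0.619), and ARO8 by 0.56, with 1.20 in Cy5 and 0.64 in Cy3 (limma adjusted p = 0.543). All 4 kept their sign in either orientation, as they had to with the same sign on every array. ARO80 and SFA1 did not, at -0.19 and -0.26 with AAE13 in Cy5 and 0.40 and 0.04 with AAE13 in Cy3 (adjusted p of the difference in limma 0.394 and 0.577). ATF1 changed sign as well, at 0.16 in Cy5 and -0.25 in Cy3, whereas ATF2 was at 0.56 in Cy5 and 0.23 in Cy3 (limma adjusted p of the difference 0.428 and 0.468). None of the 8 genes passed this test, but it has 2 arrays an orientation and called 0 of 4072 genes (0%) in limma, with 721 at an unadjusted p under 0.05.

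**Figure D4:**
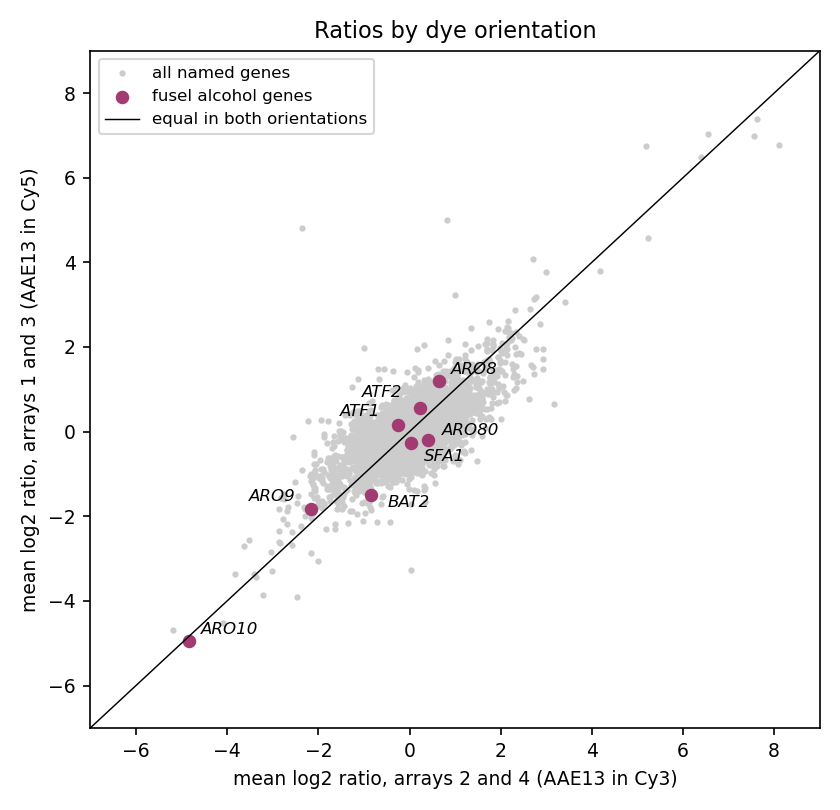
Mean log2 ratio of AAE13 over ccdB on the 2 arrays with AAE13 in Cy5 (vertical axis) against that on the 2 arrays with AAE13 in Cy3 (horizontal axis), for all named genes in grey and the 8 fusel alcohol genes in purple, with the line of equal values. ARO10 lies close to the line, at -4.94 in Cy5 and -4.85 in Cy3, and ARO80 lies below it, at -0.19 in Cy5 and 0.40 in Cy3.

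For each gene the named genes closest in profile were found by the root mean square difference of log2 ratios over the 4 arrays. For ARO10 they were PHO89 at 0.41, the siderophore transporter gene SIT1 at 0.62 and the zinc transporter gene ZRT1 at 1.35. For ARO9 they were ARN2 at 0.15, RSC30 at 0.23 and HPA3 at 0.25. For ARO8 the closest was LEU4, an isopropylmalate synthase gene of leucine synthesis, at 0.07, then STP3 at 0.17 and BAG7 at 0.19. On arrays 1 to 4 LEU4 was at 0.66, 0.45, 1.75 and 0.69, and so shared the high value of ARO8 on array 3. For BAT2 they were SOK2 at 0.19, RPL20B at 0.28 and PMR1 at 0.38. SFA1, ATF1, ATF2 and ARO80 lay among many genes near the array median, with their closest genes (SMC6, SPT16, DIG1 and YUH1) at 0.06 to 0.09.

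The genes around the pathway were taken from 11 lists of 82 genes, of which 77 were tested. The lists were chosen with earlier results of these data known, so nothing is read from their counts against the shares of all genes. Of the 77 genes, 26 rose and 15 fell by limma at an adjusted p under 0.05, beside 13.0% higher and 11.8% lower among all named genes. Without centring 33 rose and 6 fell. Of the 41 called with centring, 21 (15 higher and 6 lower) were still called when any array was left out. Most of the tested genes of aromatic and branched-chain amino acid synthesis were higher. In the second list the count of calls depended on single arrays, but the median stayed above 0 without each. Several genes that take up amino acids or are repressed by good nitrogen sources were lower. The median log2 ratio of all named genes was -0.02.

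**Figure D5:**
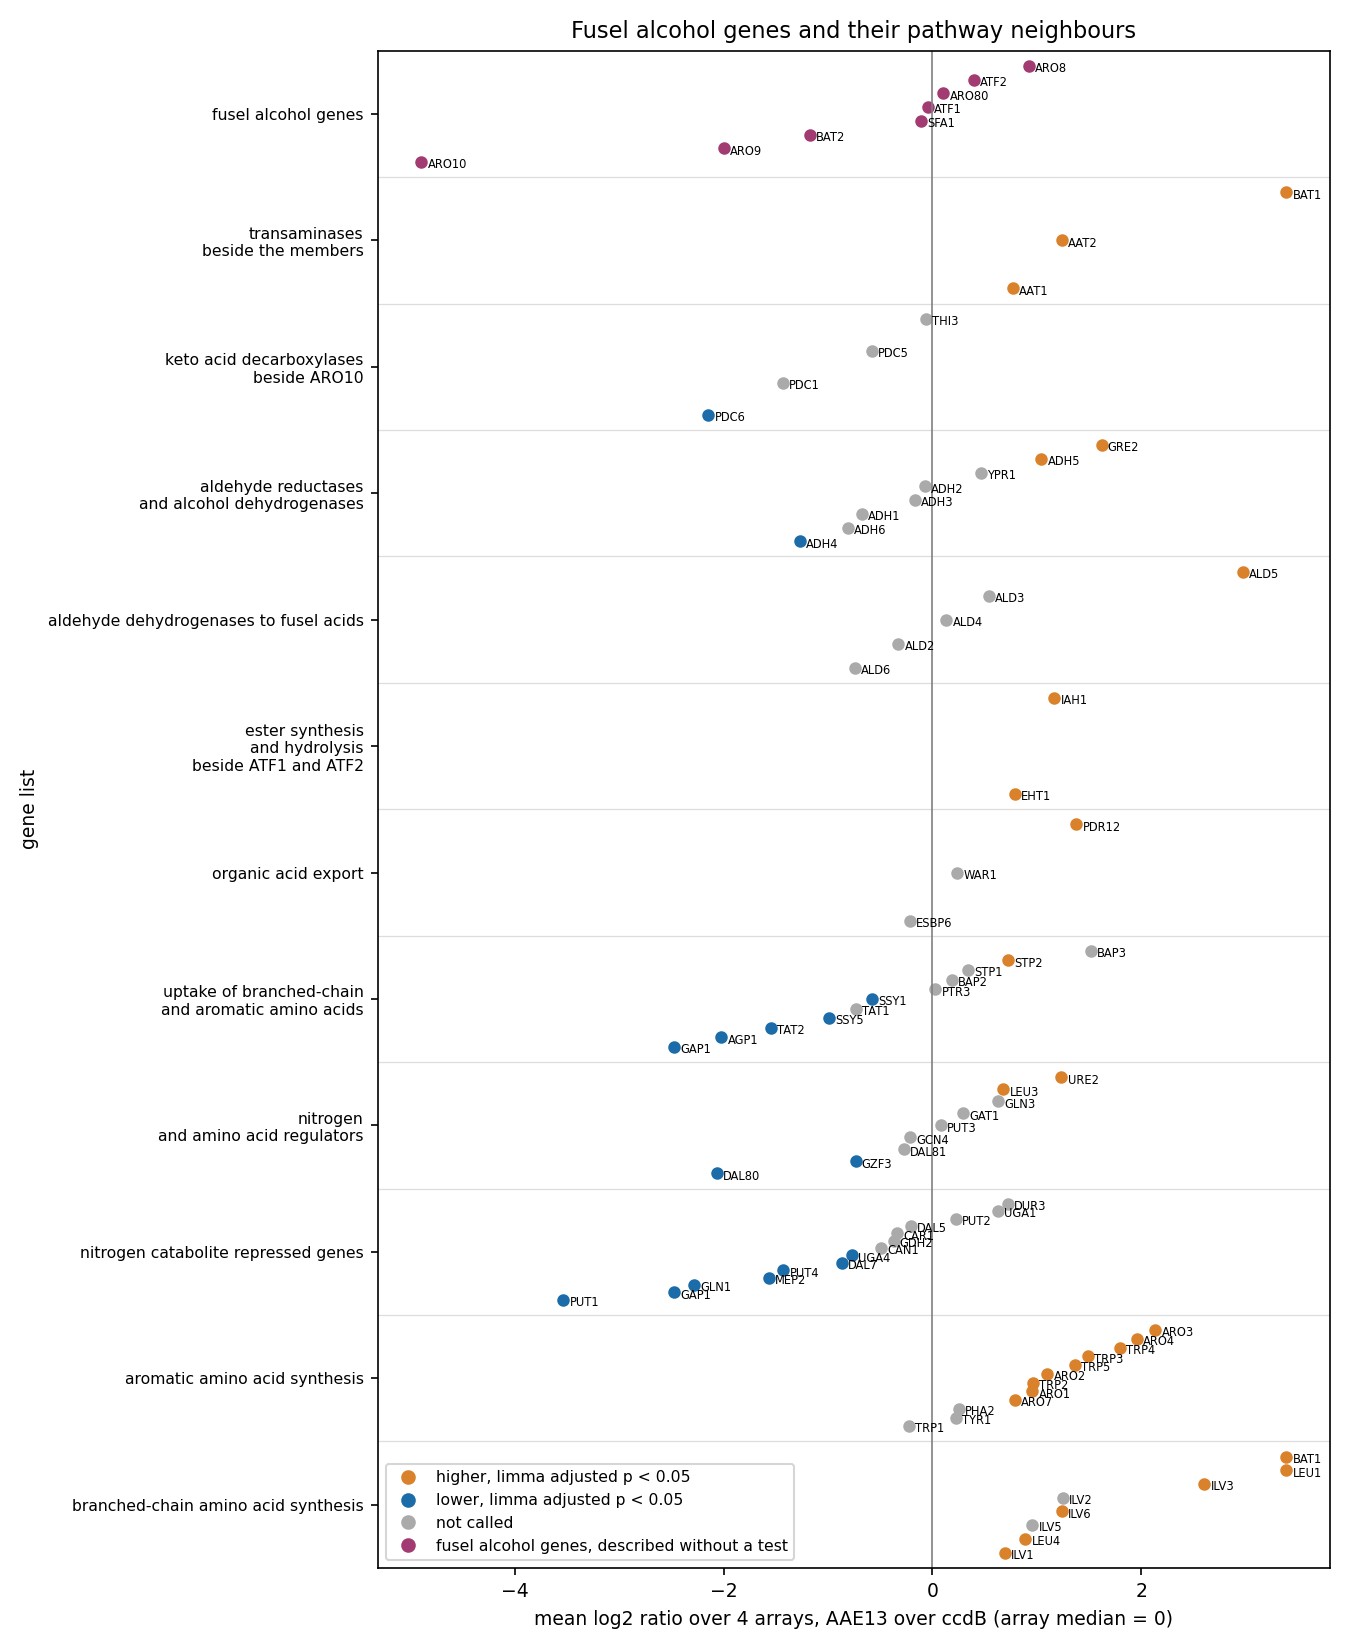
Mean log2 ratio of AAE13 over ccdB over 4 arrays (horizontal axis) for the 8 fusel alcohol genes and for the tested genes of 11 neighbouring lists (vertical axis, a band a list), coloured by limma's call at an adjusted p under 0.05. Genes of aromatic amino acid synthesis lie mostly above 0, with 9 of 12 called higher, and 7 of 14 nitrogen catabolite repressed genes are called lower.

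In the list of transaminase genes beside the 8, all 3 rose, BAT1 and the aspartate aminotransferase genes AAT1 and AAT2. UGA1, a transaminase gene in another list, was at 0.63 ± 0.54 (SD, n = 4) and was not called. AAT2 was at 1.24 ± 0.65 and AAT1 at 0.77 ± 0.23 (SD, n = 4; limma adjusted p = 0.013 and 0.0166), and AAT1 was not called without array 1 (mean 0.73) or array 4 (mean 0.83). ARO10 belongs to the pyruvate decarboxylase family. Of the 4 other genes of this family, only PDC6, a minor pyruvate decarboxylase gene, fell, at -2.15 ± 1.82 (SD, n = 4; limma adjusted p = 0.037). It was at -0.47 and -0.68 on arrays 1 and 2 and at -3.52 and -3.91 on arrays 3 and 4. That call was lost without array 3 (mean -1.69), without array 4 (mean -1.56) and with a dye term, and without array 3 the pyruvate decarboxylase gene PDC1 was called lower (mean -1.96). PDC1 and PDC5 averaged -1.43 ± 1.35 and -0.58 ± 0.77, and THI3, which regulates thiamine genes, -0.06 ± 0.47 (SD, n = 4). ARO10 was the lowest of these 5 genes on every array.

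At the reduction step, of 8 genes tested beside SFA1, 2 rose and 1 fell, with a median log2 ratio of -0.12. GRE2, a reductase of methylglyoxal and of isovaleraldehyde, was at 1.62 ± 0.15, the alcohol dehydrogenase gene ADH5 at 1.04 ± 0.24 and ADH4 at -1.27 ± 0.30 (SD, n = 4; limma adjusted p = 0.000864, 0.0055 and 0.00312). ADH4 was not called with the arrays not centred. Without array 3, ADH1 (mean -1.07) and ADH6 (mean -1.13) were called lower too, as both were with all arrays in the fit with a dye term. Probes of close copies such as ADH1 and ADH2 can cross-hybridise. For oxidation to fusel acids, 1 of 5 aldehyde dehydrogenase genes rose and 0 fell, the mitochondrial ALD5 at 2.97 ± 1.17 (SD, n = 4; limma adjusted p = 0.00252). Without array 2, ALD3 (mean 0.88) was called higher and ALD6 (mean -1.02) lower, and ALD6 was also called lower with a dye term.

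For export, PDR12, a transporter of organic acids known to remove fusel acids, rose, at 1.38 ± 0.72 (SD, n = 4; limma adjusted p = 0.0117). Without array 4 its mean was nearly the same, at 1.37, but it was not called. Its activator gene WAR1 was at 0.24 ± 0.19 and ESBP6, a gene related to monocarboxylate transporters, at -0.21 ± 0.59 (SD, n = 4), neither called. Beside ATF1 and ATF2, both tested ester genes rose. The acetate ester hydrolase gene IAH1, whose product splits isoamyl acetate, was at 1.17 ± 0.31, and the ethyl ester synthase gene EHT1 at 0.79 ± 0.25 (SD, n = 4; limma adjusted p = 0.00464 and 0.0157). EHT1 was not called without array 4 (mean 0.73).

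In aromatic amino acid synthesis, 9 of 12 genes rose and 0 fell, with a median log2 ratio of 1.03. ARO3 and ARO4, the isozymes that start the pathway, were at 2.13 ± 0.59 and 1.95 ± 0.89 (SD, n = 4; limma adjusted p = 0.00148 and 0.00538). The tryptophan synthesis gene TRP4 was at 1.80 ± 0.33 (SD, n = 4; limma adjusted p = 0.000988). PHA2 and TYR1, which lead to phenylalanine and tyrosine, were at 0.25 ± 0.51 and 0.22 ± 0.50 (SD, n = 4) and were not called. Between 7 and 9 genes of the list passed when each array was left out. In branched-chain amino acid synthesis, 6 of 8 genes rose and 0 fell, with a median of 1.24. The count of rises was 3 without array 4, 4 without array 3, 5 without array 1 and 7 without array 2. The median in those fits ran from 0.98 to 1.41. Without array 4, higher calls among all named genes went from 529 to 240.

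Among 11 genes of amino acid uptake and its sensor, 5 fell and 1 rose, with a median log2 ratio of -0.58. With the arrays not centred 2 fell and 2 rose, with a median of 0.02. The falls were those of the permease genes GAP1, AGP1 and TAT2 and the sensor genes SSY1 and SSY5. The rise was that of STP2, a transcription factor gene of the same sensor pathway. SSY1 lost its call when any array was left out and with the arrays not centred. SSY5 lost its call without array 4 and with the arrays not centred, and STP2 without arrays 2, 3 or 4. The permease gene BAP3 was not called but lay above the array median on every array, at 1.51 ± 1.43 (SD, n = 4). Limma called BAP3 higher without array 1 (mean 1.92), without array 2 (mean 1.88) and with the arrays not centred (mean 2.12). The broad permease gene AGP1 was at -2.02 ± 0.70 and the tryptophan and tyrosine permease gene TAT2 at -1.55 ± 0.46 (SD, n = 4; limma adjusted p = 0.00248 and 0.0027). TAT2 was not called with the arrays not centred. Without array 4, 2 of the 11 genes fell and 0 rose, with a median of -0.55. Of 14 nitrogen catabolite repressed genes, 7 fell (GAP1, MEP2, PUT1, PUT4, DAL7, GLN1 and UGA4) and 0 rose, with a median of -0.63. The count of falls was 2 without array 4, where the median was -0.56. Lower calls among all named genes went from 482 to 188 in that fit. The count of falls was 3, with 2 rises, when the arrays were not centred (median -0.03). PUT1 had the lowest mean of the list, -3.53 with an SD of 0.77 over 4 arrays, and ranked 5 from the lowest of 4072 genes. Its log2 ratios on arrays 1 to 4 were -4.61, -3.55, -3.12 and -2.86. Limma still called PUT1 and GLN1 lower with any array left out and with the arrays not centred. The glutamine synthetase gene GLN1 was at -2.28 ± 0.78 (SD, n = 4; limma adjusted p = 0.0021). GAP1, the general amino acid permease gene, was at -0.71 and -0.78 on arrays 1 and 2 and at -4.02 and -4.40 on arrays 3 and 4. The ammonium permease gene MEP2 was likewise at -0.32 and -0.51 on arrays 1 and 2 and at -2.63 and -2.81 on arrays 3 and 4, a gap that PDC6 had too. ARO10 and ARO9 had no such gap between those arrays, but other genes did. BAT2 was at -2.34 and -1.26 on arrays 1 and 2 and at -0.63 and -0.45 on arrays 3 and 4. BAT1 was at 2.43 and 0.99 on arrays 1 and 2 and at 5.71 and 4.42 on arrays 3 and 4. The leucine synthesis gene LEU1 was at 1.71 and 1.50 on the former arrays and at 5.85 and 4.50 on the latter. What set these arrays apart was not tested. GAP1 was not called without array 4 (mean -1.84) or with a dye term, and its mean without array 1 was -3.06. MEP2 was not called without array 3 (mean -1.21), without array 4 (mean -1.15), with a dye term or with the arrays not centred.

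Among 9 nitrogen and amino acid regulator genes, 2 rose and 2 fell, with a median log2 ratio of 0.08. The GATA repressor gene DAL80 was at -2.06 ± 0.55, and URE2, which holds the activator Gln3 in the cytoplasm, stood at 1.23 ± 0.39 (SD, n = 4; adjusted p = 0.00144 and 0.00496 by limma). The activator genes GLN3 and GAT1 were at 0.63 ± 0.59 and 0.29 ± 0.30 (SD, n = 4), and limma called neither. LEU3, the regulator gene of leucine synthesis, was called higher, but not without arrays 2, 3 or 4 (means 0.67, 0.69 and 0.54). The GATA repressor gene GZF3 was called lower, but not without arrays 1, 3 or 4 (means -0.82, -0.54 and -0.73) or with the arrays not centred (mean -0.13).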

How the data were processed

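Per the labels' protocols, cDNA was primed with oligo-dT and coupled to Alexa dyes. The authors deposited log2 ratios for 6256 probes on 4 arrays, with 4 values missing; base 2 is inferred from the values, and the sources used here state no normalization, software or direction. Of the deposited log2 values, 50.0% are odd multiples of 0.0005 and the others multiples of 0.001, as means of 2 numbers with 3 decimals would be. By the platform annotation 4075 probes have 1 gene name and 2181 have none, and those without were not used. Old symbols were replaced through a RefSeq table of assembly R64 (3942 current, 125 updated, 8 kept), unless the current name already had a probe, and probes of a gene were averaged.

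Arrays were centred on their medians. For the 4072 genes measured on at least 3 arrays, limma 3.58.1 under R 4.3.3 (lmFit, then eBayes) gave two-sided tests of the mean ratio against 0, adjusted by Benjamini-Hochberg over all of them and called under 0.05. A second limma fit held a dye term. SD values are over arrays. The fit was tested on simulated data. The 8 genes, the lists and the tests were chosen with earlier results of these data known. Genes were named if they were among the 8, in a list, or among the 3 closest in profile to each of the 8. Listed genes without a named probe here (ADH7, HFD1, EEB1, MGL2 and LEU9) were not analysed. Promoter motifs were planned but not analysed here. Alternatives were the other direction reading, no centring, scaling, a dye term, complete genes only, all probes, robust moderation and leaving out each array. Figures used Python 3.11.15 and matplotlib 3.10.9.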

Additional observations from a re-analysis of the deposited data

Results flagged for a closer look

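Among 85 genes examined for an array far from the other 3, 3 had such an array by Dixon's criterion, which flags about 1 in 20 groups by chance. ARO9 was at -2.48 on array 4, against -1.84, -1.84 and -1.83 on arrays 1 to 3, and its mean without array 4 was -1.84. IAH1 was at 0.71 on array 3, against 1.37, 1.28 and 1.30 on arrays 1, 2 and 4. ILV6, a regulatory subunit gene of branched-chain amino acid synthesis, was at 0.52 on array 4, against 1.58, 1.44 and 1.41 on arrays 1 to 3.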

How the results depend on the processing

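ARO10 and ARO9 were called lower by limma under 10 of 11 alternatives, ARO8 higher under 7 and BAT2 lower under 6. For these genes the fits on complete genes only, on all probes and with robust moderation used the same ratios as the main fit. Those alternatives could therefore change little, and the tallies count them. Leaving out each array gave 428 to 1044 genes called (1011 with all; 622 without array 1 and 428 without array 4), 2 to 4 of the 8 genes and 22 to 42 of the 77 tested neighbours. Testing all 6256 probes gave 1508 calls. With the ratios read as Cy5 over Cy3, limma called 0 of all genes, 0 of the 8 and 0 of the neighbours. Under that reading ARO9 turned to 0.16, and these called neighbours changed sign: AAT2 (-0.019), PDC6 (0.15), ADH4 (0.25), GRE2 (-0.10), IAH1 (-0.13), GAP1 (0.11), AGP1 (0.10), TAT2 (0.37), SSY5 (0.41), STP2 (-0.40), URE2 (-0.32), LEU3 (-0.22), MEP2 (0.093), PUT4 (0.15), DAL7 (0.19), GLN1 (0.40), ARO1 (-0.10), ARO3 (-0.27), TRP2 (-0.032) and TRP4 (-0.18). This follows from turning the sign of arrays 2 and 4. With the arrays not centred, SSY1, a called sensor gene of amino acid uptake, changed sign (0.024), and 151 genes were called for the dye difference, which then holds the differences between array medians. Each ratio pairs an AAE13 with a ccdB culture, so the test against 0 is itself the paired analysis. Signal over background was not analysed here.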
